A study of Mus musculus with 6 samples.

Results

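The immediate early genes outside AP-1 were taken as 10 named mouse genes: Egr1, Ier2, Ier3, Dusp1, Zfp36, Klf2, Klf6, Btg2, Myc and Ier5. They were found by matching the Ensembl identifiers of the deposited table to gene symbols in GENCODE release M21. All 10 were among the 16665 genes of the table, and 9 passed the filter on low values (a mean of at least 1 FPKM). Egr1 did not. FPKM is a fragment count scaled to exon length and to the fragments of the library. The cells were RAW264.7, a mouse line with macrophage properties that came from a leukaemia. Cells were transfected with a miR-125b mimic (3 libraries, labelled as miR-125b overexpression) or with a negative control (3 libraries, labelled as miR-125b WT), so all groups carried a transfection. The libraries were made from total RNA with a SMARTer mRNA kit. Nothing in the labels says that the 3 libraries of a group came from separate cultures, and p-values therefore measure only the spread between these libraries, which may be technical.

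Immediate early genes are transcribed within minutes of a growth factor, cytokine, microbial or stress signal, without new protein synthesis. MAP kinases relay the signal to factors already bound at their promoters, among them serum response factor with its ELK partners and the cyclic AMP response element binding protein, while NF-kB drives several of them in macrophages. Their mRNAs are mostly short lived, and many carry AU-rich elements in the 3′ untranslated region (3′ UTR). Several of the proteins then end the response: Dusp1 is a phosphatase that switches off p38 and JNK, and Zfp36 (tristetraprolin) binds AU-rich elements and triggers decay of inflammatory mRNAs such as that of Tnf.

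The mature guide strand of miR-125b and the places where members could pair with it are shown here because the mimic is the agent tested. The labels do not say which arm the mimic holds. The RefSeq entry for the 5p arm on GRCm38.p6 is given 5′ to 3′ with the seed, bases 2 to 8, in capitals.
miR-125b-5p: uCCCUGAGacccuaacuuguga
Matches to the seed were sought on the transcript strand of each member's longest 3′ UTR in the annotation. The letters were CTCAGGG (7mer-m8), the same followed by A (8mer), and TCAGGGA (7mer-A1), each site counting once as its longest form. None of the 10 members held an 8mer or a 7mer-A1 site, and 3 held a single 7mer-m8 site. These 3 are shown 5′ to 3′ with the match in capitals.
Ier3, base 492 of a 613-base 3′ UTR, chr17:35822802-35822808, plus strand: ggttgcttCTCAGGGgcagctgc
Btg2, base 450 of a 2199-base 3′ UTR, chr1:134076913-134076919, minus strand: ctctcttaCTCAGGGgcattcaa
Ier2, base 228 of a 755-base 3′ UTR, chr8:84661852-84661858, minus strand: tcttgaatCTCAGGGtcgaactc
Coordinates are those of the match on GRCm38, the assembly that the name mm10 stands for. Among 9312 tested genes with an annotated 3′ UTR, 11.1% held a 7mer-m8 site and 22.2% any of the 3 forms. A match is a description of the letters and not evidence of binding.

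AU-rich pentamers were present in most members, as in most tested genes. The DNA pentamer ATTTA (overlapping copies counted, transcript strand) occurred in the 3′ UTR of 9 of 10 members, Ier2 being the exception, and in 70.4% of tested genes. Ier3 had 5 copies, or 8.16 per kilobase, the highest density among members, and Dusp1 had 4, or 5.80 per kilobase. Dusp1 alone held a pair of these pentamers that overlap by 1 base, which 6.70% of tested genes have. The median density was 2.26 per kilobase in members and 1.38 in tested genes. All 10 members had at most 4 exons in the longest coding transcript (median 2), a compact structure found in 18.3% of tested genes (median 9). The longest transcripts had a median of 2541 bases against 3356, and a median GC content of 54.0% against 49.3%.

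The recovered depth was similar in all libraries, but 1 negative control stood apart. A depth of 14.4 to 16.8 M fragments per library was recovered from the step size of low FPKM values. It nearly equalled the fragments summed over the genes of the table (15.60 and 15.57 M in negative control 1). It therefore says nothing of the total sequencing of a library. Negative control 3 had 13266 genes above 0, where the other libraries had 15141 to 15470. In 65.7% of tested genes its level was closer to the mimic mean than to the mean of negative controls 1 and 2, and in 37.3% it was the lowest of the 6 libraries. All 8 macrophage markers looked for were expressed, with summed levels of 7161 to 8632 FPKM in negative controls and 6406 to 6673 FPKM in mimics, mostly from Lyz2. Of the listed markers of fibroblasts, endothelium, T cells and B cells none exceeded 0.484 FPKM in any library, and those of epithelium had no row in the table. The housekeeping gene Actb stood at 237 ± 38.0 and 186 ± 30.6 FPKM in negative controls and mimics (SD, n = 3; log2 fold change −0.35, SE 0.18). The fold change of Actb ran from −0.49 to −0.21 with single libraries left out, and Actb was called as lower in 3 of the settings tried. Since these are bulk samples, fewer cells expressing a gene and less RNA per cell cannot be told apart.

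No immediate early gene passed the test between mimic and negative control when all 6 libraries were used. With limma on log2(FPKM + 1) and Benjamini-Hochberg adjustment, 0 of the 9 tested members were called. Over all 10166 tested genes 0% were called. Before adjustment, 1344 genes (13.2%) and 0 members had a p under 0.05, and limma voom on recovered fragments called 0 genes and 0 members. Of the 9 members 7 were lower and 2 higher with the mimic, with a median log2 fold change of −0.097, where all tested genes had a median of 0.041 and 43.7% of them were lower. The values of the mimic and control groups overlapped in every member, whereas they did not overlap in 20.1% of tested genes (7.49% lower and 12.6% higher). The libraries were split in another way. Ier3, Zfp36, Ier5, Klf2, Klf6, Myc and Egr1 had all 3 mimics below negative controls 1 and 2, with negative control 3 as low as the mimics or lower. For Klf6 the margin was slight, at 54.10 FPKM in mimic 2 and 54.13 in negative control 1. Over all tested genes 29.8% had all mimics below negative controls 1 and 2, and 28.1% above.

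**Figure D1:**
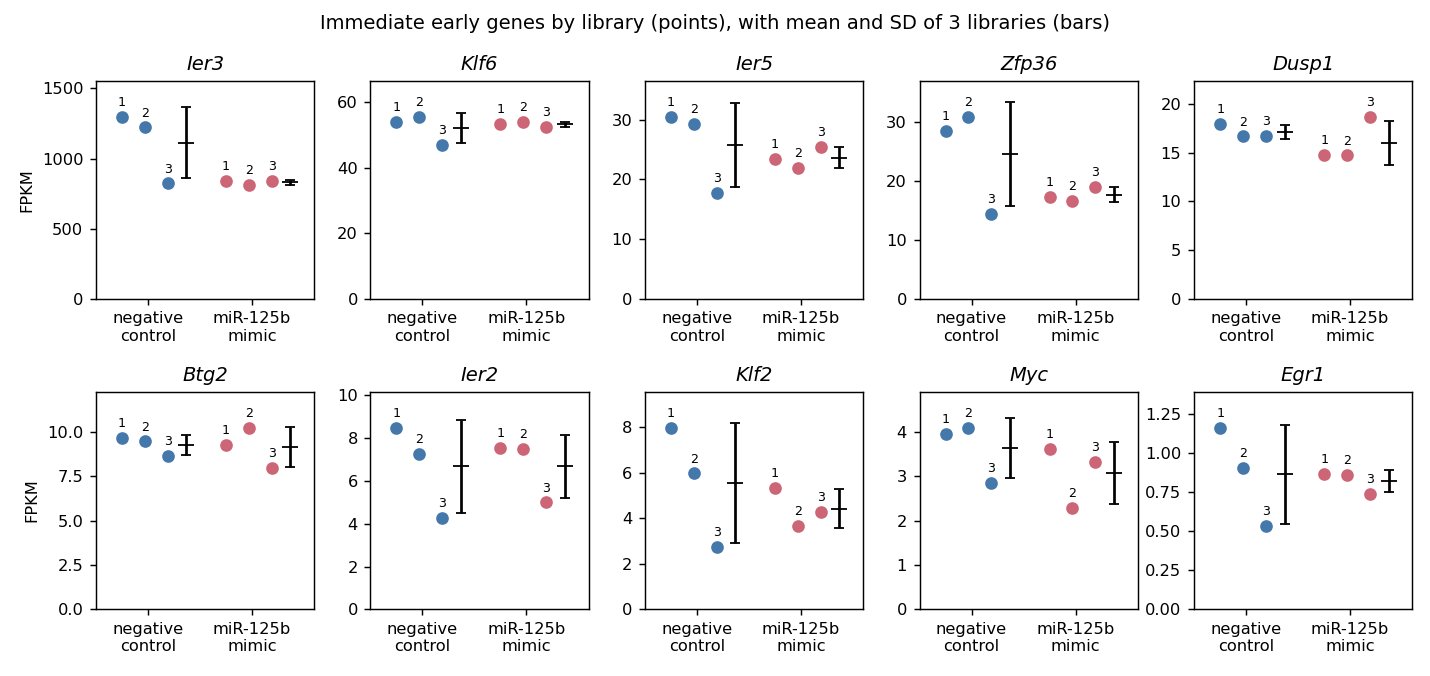
FPKM (linear axes from 0) of each gene in the 3 negative controls (blue) and 3 miR-125b mimics (red), numbered by replicate, with bars for the mean and SD of 3 libraries. Negative control 3 lies far below negative controls 1 and 2 for Ier3, Ier5, Zfp36, Ier2, Klf2 and Egr1, while Dusp1 and Btg2 are nearly level.

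Ier3 (IEX-1), a short-lived regulator of survival induced by NF-kB and growth signals, was by far the most abundant member. It lies on chromosome 17 (35821684 to 35822923, plus strand) and ranked 31 among tested genes by mean FPKM. It read 1294, 1222 and 822 FPKM in negative controls 1, 2 and 3, and 839, 809 and 841 FPKM in mimics 1, 2 and 3. Negative controls 1 and 2 were high and the other 4 libraries formed a narrow band, in which negative control 3 fell within the range of the mimics. The group means were 1113 ± 254 and 830 ± 18.01 FPKM (SD, n = 3), and the log2 fold change was −0.40 (SE 0.19, 95% interval −0.84 to 0.045, limma adjusted p = 0.411). Counting error was small here, since the libraries held 13678 to 23230 fragments of Ier3; fragments without molecular identifiers are not independent molecules.

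Zfp36, the decay factor described above, had the next largest difference among members. It lies on chromosome 7 (28376784 to 28380253, minus strand). The negative controls read 28.4, 30.7 and 14.4 FPKM and the mimics 17.2, 16.6 and 19.0 FPKM. As with Ier3, negative controls 1 and 2 were high, but negative control 3 was the lowest of all 6. The means were 24.5 ± 8.82 and 17.6 ± 1.25 FPKM, with a log2 fold change of −0.39 (SE 0.27, 95% interval −1.01 to 0.23, limma adjusted p = 0.537). An antisense gene, Gm44710, overlaps 3.60% of its exon bases, and with the strand setting unknown a small part of the reads may belong there.

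Ier5, which binds the phosphatase PP2A and modulates the heat shock factor HSF1, likewise had negative controls 1 and 2 as its highest libraries. It lies on chromosome 1 (155096361 to 155099636, minus strand). Its levels were 30.4, 29.3 and 17.7 FPKM in negative controls and 23.5, 21.9 and 25.4 FPKM in mimics. All mimics lay between negative control 3 and the other controls. The log2 fold change was −0.087 (SE 0.21, 95% interval −0.57 to 0.40, limma adjusted p = 0.877), from means of 25.8 ± 7.02 FPKM in controls and 23.6 ± 1.74 FPKM in mimics.

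Klf2 and Klf6 are zinc-finger factors of the Krüppel-like family and differed in level and in spread. Klf2, which restrains inflammatory gene expression in monocytes and macrophages, lies on chromosome 8 (72319033 to 72321656, plus strand) and read 7.95, 5.96 and 2.72 FPKM in negative controls and 5.32, 3.65 and 4.26 FPKM in mimics. It had the widest range of the 10, 2.92-fold from the highest to the lowest library, on 74 to 229 fragments. Its log2 fold change was −0.19 (SE 0.31, 95% interval −0.93 to 0.54, limma adjusted p = 0.803). Klf6 lies on chromosome 13 (5861482 to 5870394, plus strand) and read 54.1, 55.4 and 47.0 FPKM in negative controls and 53.3, 54.1 and 52.4 FPKM in mimics. It was the steadiest member, with a 1.18-fold range, and its log2 fold change was 0.032 (SE 0.11, 95% interval −0.22 to 0.29, limma adjusted p = 0.916).

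Egr1 and Myc, transcription factors that carry growth signals onward, were expressed at low levels. Egr1, on chromosome 18, read 1.16, 0.902 and 0.531 FPKM in negative controls and 0.865, 0.860 and 0.739 FPKM in mimics, from 35 to 81 fragments. With no filter on low values its log2 fold change was −0.020 (SE 0.15, limma adjusted p = 0.984), on a scale that understates changes of low genes. Myc lies on chromosome 15 (61985391 to 61990374, plus strand) and read 3.96, 4.09 and 2.85 FPKM in negative controls and 3.62, 2.28 and 3.33 FPKM in mimics. Mimic 2 and negative control 3 were its lowest libraries, and the log2 fold change was −0.19 (SE 0.19, 95% interval −0.63 to 0.25, limma adjusted p = 0.674). The paralogue Mycn, named after its values were seen, was far more abundant per length at 196 ± 43.8 FPKM in negative controls and 172 ± 14.7 FPKM in mimics.

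Ier2, Btg2 and Dusp1 showed group means that lay close together. Ier2, a small nuclear protein gene with 1 exon, lies on chromosome 8 (84661331 to 84662852, minus strand). It read 8.46, 7.26 and 4.28 FPKM in negative controls and 7.54, 7.47 and 4.99 FPKM in mimics, so that both libraries numbered 3 were low. The means were 6.67 ± 2.15 and 6.67 ± 1.45 FPKM (log2 fold change 0.023, SE 0.25, 95% interval −0.56 to 0.61, limma adjusted p = 0.978). Btg2, an antiproliferative factor that brings the CCR4-NOT deadenylase to mRNAs, lies on chromosome 1 (134075170 to 134079120, minus strand). It read 9.68, 9.48 and 8.65 FPKM in negative controls and 9.26, 10.2 and 7.96 FPKM in mimics (log2 fold change −0.021, SE 0.13, 95% interval −0.32 to 0.28, limma adjusted p = 0.959).

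Dusp1, like Btg2, had its highest level in a mimic, where each of the other 8 members had it in negative control 1 or 2. It is annotated on chromosome 17 (26505590 to 26562128, minus strand). Levels were 17.95, 16.7 and 16.8 FPKM in negative controls and 14.8, 14.7 and 18.6 FPKM in mimics. The 3 negative controls agreed closely, mimics 1 and 2 were lower and mimic 3 was the highest of all. The log2 fold change was −0.097 (SE 0.13, 95% interval −0.40 to 0.20, limma adjusted p = 0.757). Of the 9 tested members Dusp1 was the only one in which negative control 3 lay nearer to the other controls than to the mimics.

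Ordered by mean FPKM over the 6 libraries, the members ran from Ier3 through Klf6, Ier5, Zfp36, Dusp1, Btg2, Ier2, Klf2 and Myc to Egr1. The gaps above and below Klf6 were wider than the spread of the libraries. So was the gap between Dusp1 and Btg2, and that between Myc and Egr1. The ranges of the other neighbours overlapped. Ier5 exceeded Zfp36 in 5 of 6 libraries, negative control 2 being the exception, and Klf2 lay below Myc in negative control 3. The 3 members with a 7mer-m8 seed match stood at log2 fold changes of −0.40 (Ier3), −0.021 (Btg2) and 0.023 (Ier2), and the 6 tested members without one ranged from −0.39 (Zfp36) to 0.032 (Klf6).

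The comparison of the groups turned on negative control 3. Relative to the mean of negative controls 1 and 2, on the log2(FPKM + 1) scale, it was lower by values from −0.043 for Dusp1 to −1.08 for Klf2, with −0.99 for Zfp36, −0.74 for Ier2, −0.72 for Ier5 and −0.61 for Ier3. The median of this difference was −0.61 over the 9 tested members and −0.14 over all tested genes. It was the lowest control in 8 of the 9, and in 56.6% of all tested genes. The mimics differed from the same pair of controls by −0.72 for Zfp36, −0.60 for Ier3, −0.56 for Klf2, −0.33 for Ier5 and −0.32 for Myc. In 6 of the 9 tested members all mimics were below negative controls 1 and 2, where 29.8% of tested genes were and 28.1% were above.

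**Figure D2:**
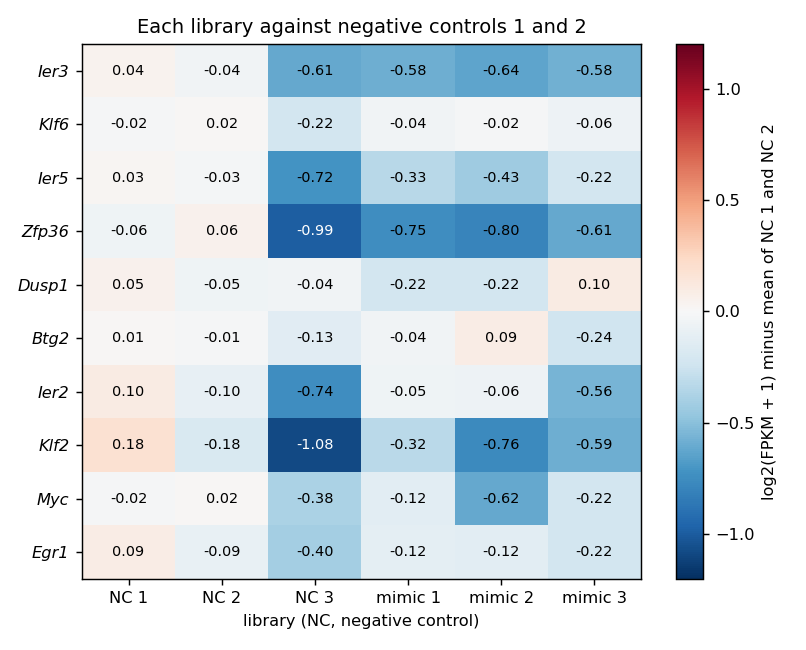
Difference in log2(FPKM + 1) of each library (columns) from the mean of negative controls 1 and 2, for each gene (rows, ordered by mean FPKM); blue is lower and red higher. The column of negative control 3 holds the lowest value for 6 genes, and Zfp36 and Ier3 are low in it and in all 3 mimics.

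Without negative control 3, limma called 3 of the 9 tested members, all lower with the mimic, beside 23.7% of all tested genes (12.2% lower). The 3 were Zfp36 (log2 fold change −0.72, SE 0.090, limma adjusted p = 0.00614), Ier3 (−0.60, SE 0.075, limma adjusted p = 0.00614) and Ier5 (−0.33, SE 0.087, limma adjusted p = 0.0387). Klf2 stood at −0.56 (SE 0.17, limma adjusted p = 0.0591) and Myc at −0.32 (SE 0.17, limma adjusted p = 0.205). All 9 were then lower, with a median of −0.32, and the median over all tested genes was −0.0064. Negative control 3 went against these differences, since it read 14.4 FPKM for Zfp36, 822 for Ier3 and 17.7 for Ier5, within or below the range of the mimics. Among the settings tried, these 3 were called together again in 2 others. Array weights, which gave negative control 3 a weight of 0.0861 and negative control 2 one of 5.44, called these 3 members beside 51.9% of tested genes (24.1% lower). Leaving out both libraries numbered 3, a setting chosen after seeing the data, called these 3 and Dusp1 (−0.22, limma adjusted p = 0.0380) beside 43.1% (19.9% lower).

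The members also shifted when transcript length and GC content were taken into account. When the trend of each library on both was removed, with all 6 libraries, the median over members was −0.0056, with 5 lower and 4 higher, and 0 members and 0 genes were called. Ier3 then stood at −0.16 (SE 0.14) and Zfp36 at −0.24 (SE 0.20), while Ier2, short and rich in GC, moved from 0.023 to 0.33 (SE 0.20, limma adjusted p = 0.725). Klf2 went from −0.19 to 0.10 and Dusp1 from −0.097 to 0.076. With the trend removed and negative control 3 left out, 2 members passed, beside 2.74% of tested genes (2.05% lower): Zfp36 at −0.48 (SE 0.085, limma adjusted p = 0.0440) and Klf6 at −0.33 (SE 0.061, limma adjusted p = 0.0496). Ier3 stood at −0.29 (SE 0.077, limma adjusted p = 0.0986) there. Zfp36 was thus lower under each of these 4 treatments of the data, as were Ier3, Ier5 and Myc. Ier5 and Myc were near 0 (−0.0056 and −0.032) with the trend removed from all 6 libraries. Zfp36 was called in 2 of the treatments, and Klf6 was near 0 until the trend was removed. The treatments share the same libraries and are not independent. Both calls of Zfp36 came with negative control 3, its lowest library, left out. The part that RNA quality or library preparation had in these shifts was not tested.

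**Figure D3:**
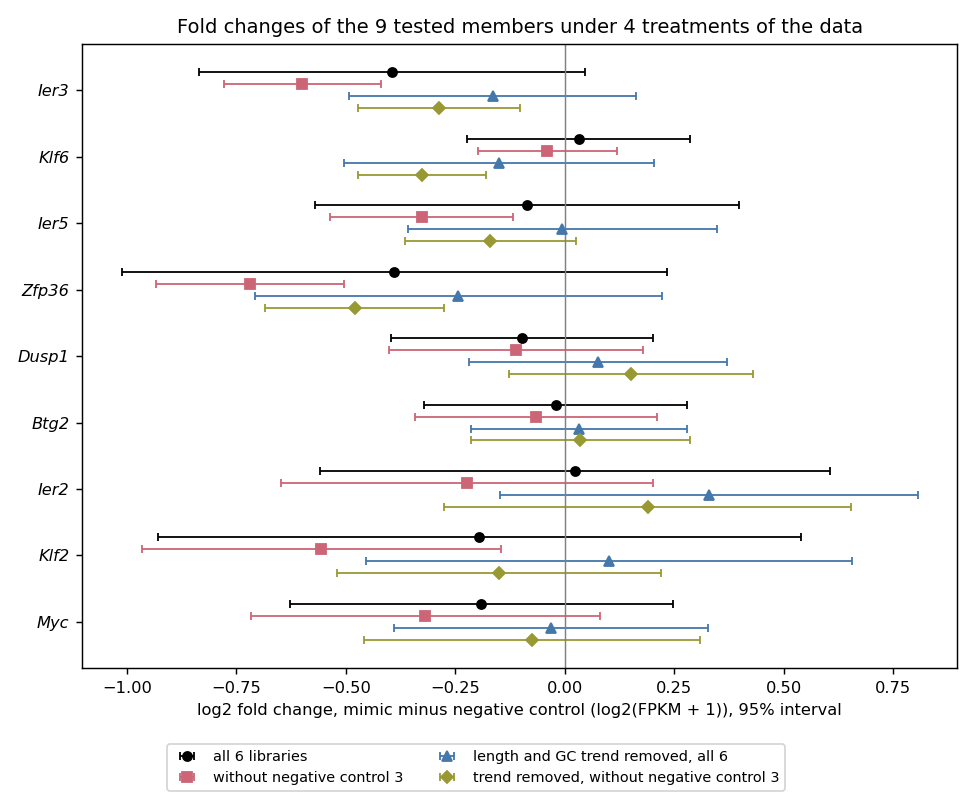
Log2 fold changes (mimic minus negative control, x axis, with 95% intervals from limma) of the 9 tested members under 4 settings: all libraries, without negative control 3, trend on length and GC content removed, and the last 2 combined. Intervals for Zfp36, Ier3, Ier5 and Klf2 lie below 0 without negative control 3, although Klf2 missed the adjusted threshold, and all 9 intervals span 0 when all 6 libraries are used.

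Promoter sequences are shown for Zfp36 and Ier3, the members with the largest differences, and for Dusp1, as an example with the cyclic AMP response element. Promoter windows were matched for 7 of the 10 members (not Egr1, Ier2 or Myc) in RefSeq on GRCm38.p6, as 250 bases before to 50 after the start site. Capitals mark the CArG box bound by serum response factor, the cyclic AMP response element TGACGTCA, its half-site TGACG, which the full element contains, and the TATA box TATAAA, each searched on both strands. The GC box GGGCGG, also searched, is not in capitals.
Zfp36, chr7:28379179-28379478, minus strand: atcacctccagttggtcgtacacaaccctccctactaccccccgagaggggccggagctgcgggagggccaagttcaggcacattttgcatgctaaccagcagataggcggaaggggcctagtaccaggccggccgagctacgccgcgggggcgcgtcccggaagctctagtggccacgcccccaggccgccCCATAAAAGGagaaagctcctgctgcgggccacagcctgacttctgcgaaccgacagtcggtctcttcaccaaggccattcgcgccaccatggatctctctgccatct
Ier3, chr17:35821463-35821762, plus strand: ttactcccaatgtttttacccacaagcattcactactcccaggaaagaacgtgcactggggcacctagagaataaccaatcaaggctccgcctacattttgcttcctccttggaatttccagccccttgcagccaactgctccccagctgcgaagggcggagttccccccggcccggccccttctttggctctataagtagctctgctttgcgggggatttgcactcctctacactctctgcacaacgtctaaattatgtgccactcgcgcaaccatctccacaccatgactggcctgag
Dusp1, chr17:26508423-26508722, minus strand: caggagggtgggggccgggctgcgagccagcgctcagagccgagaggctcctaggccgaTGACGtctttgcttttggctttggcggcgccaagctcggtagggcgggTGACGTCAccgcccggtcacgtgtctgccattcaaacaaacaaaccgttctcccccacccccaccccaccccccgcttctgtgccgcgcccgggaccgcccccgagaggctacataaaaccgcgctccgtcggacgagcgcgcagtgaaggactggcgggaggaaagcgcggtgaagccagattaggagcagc
Zfp36 was the only one of the 7 with a CArG box, at position −58 from the start site, and 1.63% of all 32851 promoters held one. The full cyclic AMP response element occurred in Dusp1, at position −143, and in Btg2, at −166, against 1.79% of all promoters. The half-site occurred in these and in Klf2, against 20.8%. The TATA box as spelled was in none of the 7 (13.6% of all). Ier3 held none of these in this window. The GC box was in all 7, against 35.7% of all promoters. These are matches of letters and say nothing of a factor's binding.

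Other genes of the response leaned the same way without passing the test. Of 31 other primary response genes 26 were tested, and 6 were higher and 20 lower (median −0.22; 0 called, and 2 lower at an unadjusted p under 0.05). Its median was −0.087 after removal of the trend on length and GC content. The 2 were Cebpb, a C/EBP factor of macrophage activation, at 96.1 ± 31.1 and 57.2 ± 6.33 FPKM (log2 fold change −0.69, SE 0.25, limma adjusted p = 0.344), and Id3, an inhibitor of bHLH factors, at 2.86 ± 0.564 and 1.75 ± 0.233 FPKM (−0.48, SE 0.16, limma adjusted p = 0.332). Gadd45b, a stress sensor, stood at −0.52 (SE 0.25) and at −0.83 without mimic 3, which lay with the controls at 106 FPKM. Cebpd stood at −0.38 (SE 0.18) and at −0.24 without mimic 3. Cebpb showed the same split as Ier3, with 118 and 109 FPKM in negative controls 1 and 2, 60.6 in negative control 3 and 59.4, 50.02 and 62.1 in mimics. Without negative control 3, Cebpb (−0.99, limma adjusted p = 0.00531) and the kinase Plk3 (−0.51, limma adjusted p = 0.0261, named after its value was seen) passed, both lower. They were 2 of the 26 tested in this list, beside 23.7% of all tested genes (12.2% lower). With the trend also removed, Cebpb stood at −0.56 (limma adjusted p = 0.0284) and Plk3 at −0.16 (limma adjusted p = 0.468), where 2.74% of tested genes passed.

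AP-1 genes, the other large class of immediate early factors, had a median of −0.35, with 2 higher and 7 lower of 9 tested and 0 called. This median was −0.094 after the same trend was removed. At an unadjusted limma p under 0.05, 3 of the 9 were lower and 0 higher, where 535 of 10166 tested genes were lower. Jund stood at −0.54 (SE 0.20), Jun at −0.49 (SE 0.19), Maff at −0.35 (SE 0.14) and Fosb at −0.36 (SE 0.20), each with limma adjusted p values from 0.341 to 0.464. In none of these 4 was negative control 3 far below the other controls, as it was in Ier3. Jun read 40.3, 40.9 and 35.9 FPKM in negative controls and 24.3, 22.7 and 37.7 FPKM in mimics, so that mimic 3 and not negative control 3 was the library out of line. In Dusp1 too, mimic 3 was the highest of the mimics. With negative control 3 left out, Junb, named after its value was seen, passed as the single AP-1 gene (−0.91, limma adjusted p = 0.00420). It was 1 of 9 tested, beside 23.7% of all tested genes (12.2% lower) in that fit. Whether AP-1 genes differ from the other immediate early genes was not tested, and the lists share all 6 libraries.

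Upstream of both classes, the ERK cascade and its transcription factors were divided. All 21 genes were tested, 13 higher and 8 lower (median 0.16, 0 called). Components that were lower included the kinase Map2k2 (12.9 ± 1.74 and 9.44 ± 0.298 FPKM, log2 fold change −0.41, SE 0.13, limma adjusted p = 0.332), the adaptor Grb2 (−0.42, SE 0.14) and Mapk3, which encodes ERK1 (−0.49, SE 0.19). The kinase Braf was higher (11.6 ± 2.16 and 16.0 ± 0.903 FPKM, 0.45, SE 0.15, limma adjusted p = 0.332). The groups did not overlap in 7 of the 21, with 5 higher (Braf among them) and 2 lower (Map2k2 and Grb2), where they did not in 12.6% of tested genes in the higher and 7.49% in the lower direction. Without negative control 3, 5 of the 21 passed in each direction, beside 23.7% of all tested genes (12.2% lower). With the length and GC trend removed from all 6 libraries, 0 of the 21 passed, as did 0 of all tested genes. With the trend and negative control 3 both removed, Mapk3 had the smallest adjusted p of the list (−0.34, limma adjusted p = 0.0565). In that fit 2.74% of tested genes passed (2.05% lower).

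Feedback inhibitors of MAP kinases, the dual-specificity phosphatases and the Sprouty and Spred proteins, were the list with the most uniform sign. Of 12 tested, 11 were higher and 1 lower (median 0.21, 0 called, 0 at an unadjusted p under 0.05). Spred1 read 74.9, 76.4 and 81.7 FPKM in negative controls and 126, 132 and 72.7 FPKM in mimics, so that mimic 3 lay with the controls (log2 fold change 0.45, SE 0.22). Spred3 stood at 0.50 (SE 0.25), Dusp5 at 0.35 (SE 0.20) and Dusp4 at 0.24 (SE 0.21). These were 0.25, 0.16 and 0.0012 without negative control 3. Without negative control 3 the list had 6 higher and 6 lower, and its median was −0.035. With the length and GC trend removed from all 6 libraries, it had 9 higher and 3 lower (median 0.23, 0 called). With the trend and negative control 3 both removed, Spred3 stood at 0.44, Dusp5 at 0.47, Dusp4 at 0.29 and Spred1 at 0.084. Each of these had a limma adjusted p above 0.05.

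Partners and relatives of the members were divided in sign. In the MAX network, whose proteins pair with or oppose Myc, 4 of 9 tested genes were higher and 5 lower (median −0.030, 0 called). The repressor Mga stood at 0.42 (SE 0.20), Mlxip at 0.18 (SE 0.11), Mlx at −0.19 (SE 0.12) and Mnt at −0.21 (SE 0.18). Among 12 tested relatives in the ZFP36, BTG/TOB and KLF families, 8 were higher and 4 lower (median 0.0081, 0 called). Klf9, a KLF factor known for its induction by glucocorticoids, read 13.0, 13.6 and 10.5 FPKM in negative controls and 20.8, 20.7 and 15.8 FPKM in mimics (log2 fold change 0.59, SE 0.16, limma adjusted p = 0.332). Klf3 (0.34, SE 0.15) and Klf7 (0.22, SE 0.10) were also higher in every mimic than in any control, as in 12.6% of tested genes. Zfp36l1, a relative of Zfp36 that also binds AU-rich elements, stood at −0.15 (SE 0.12). In the fit lacking negative control 3, Mga (0.63, limma adjusted p = 0.0126) and Klf9 (0.48, limma adjusted p = 0.0420) passed as higher and Mycn (−0.37, limma adjusted p = 0.0297) as lower. Over all tested genes 23.7% passed there (12.2% lower). Mga, Klf9 and Mycn did not pass once the trend on length and GC content was taken out of that fit. Mga then stood at 0.14 (limma adjusted p = 0.464) and Klf9 at 0.39 (limma adjusted p = 0.119). Mycn stood at −0.11 (limma adjusted p = 0.476), where 2.74% of tested genes passed. Using all 6 libraries, the same removal gave 0.073 for Mga, 0.50 for Klf9 and −0.0036 for Mycn.

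**Figure D4:**
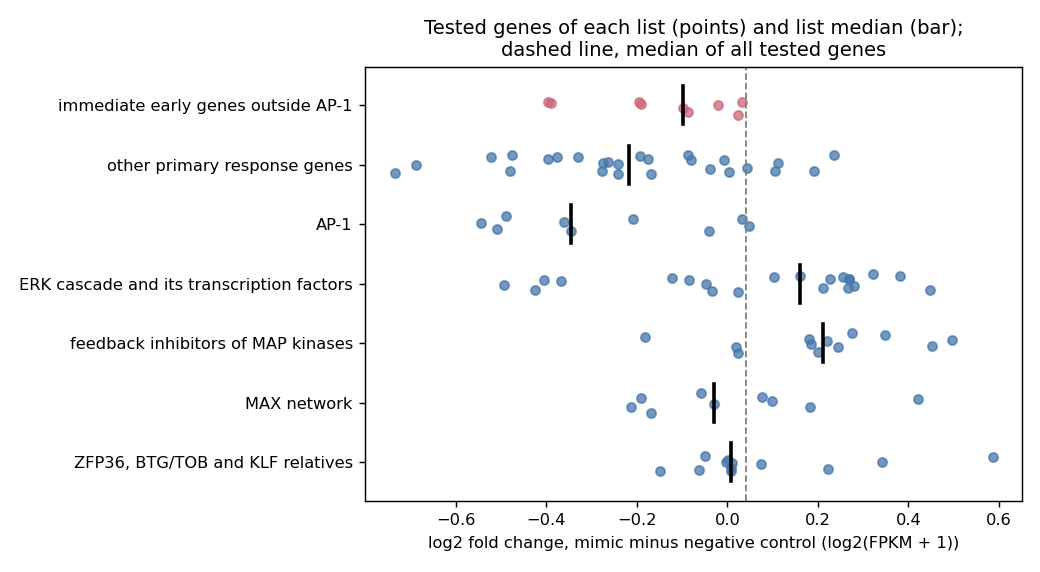
Log2 fold change (x axis, mimic minus negative control, all 6 libraries) of each tested gene in the members and in 6 related lists; black bars are list medians and the dashed line is the median of all tested genes, 0.041. The members' median is −0.097, that of AP-1 genes −0.35 (−0.094 after the trend was removed) and that of feedback inhibitors 0.21. The last is 0.23 after the trend was removed and −0.035 without negative control 3.

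The genes whose profile was nearest to the mean profile of the 9 tested members were Fdps, Myo1g, Preb, Uba1 and Ttll12. Likeness was the root mean square difference of centred log2(FPKM + 1) over the 6 libraries, which was 0.019 for Fdps and 0.034 for Ttll12, with a median of 0.26 over tested non-members. The members' mean profile stood at 0.29, 0.22 and −0.29 in negative controls 1, 2 and 3 and at −0.017, −0.13 and −0.075 in mimics. Uba1 shows the pattern, with 88.2, 86.6 and 56.6 FPKM in negative controls and 69.9, 63.4 and 68.1 FPKM in mimics. Among members, Ier5 was nearest to the common profile (0.084) and Klf2 farthest (0.22).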

How the data were processed

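RNA-seq of 6 RAW264.7 libraries was analysed, 3 per group, grouped and numbered by the sample titles. The authors deposited 1 table of FPKM values; the submitters' processing notes name as tools HISAT2, fastp and DESeq2, with mm10 as build. No source used here names the counting tool, annotation, strand setting or filter. Scaling to about the fragments assigned to the genes of the table makes values relative, so a few abundant genes can shift all others. Symbols, lengths and 3′ UTRs came from GENCODE M21 on GRCm38 (16582 identifiers matched, 83 did not).

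The 10166 genes whose FPKM averaged 1 or more were compared on the log2(FPKM + 1) scale by limma (3.58.1, R 4.3.3) using its trend option. Tests were two-sided, with Benjamini-Hochberg adjustment over all tested genes at 0.05. SE is that of the moderated fit. Depth was recovered from FPKM and exon length: 98.6% to 99.0% of values up to 20 fragments were whole within 0.1 fragment. The length and GC trend was removed per library with natural splines (4 degrees of freedom each).

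Members and lists were chosen with earlier results of these data known. All members are named, with up to 4 genes of smallest p per list, the 5 nearest profiles and Actb; Mycn, Plk3 and Junb were added after their values were seen. Other settings tried were the pseudocount, filter, scaling, weights, voom, a replicate block and each library left out. Same-numbered libraries deviated from their group means together (correlations across genes 0.287, 0.183 and 0.339). Negative control 2 with mimic 1 reached 0.308, above 0.287 and 0.183. Deviations from a mean of 3 libraries sum to 0, so these correlations depend on each other and cannot establish a pairing. The labels do not say what a number marks. Pairing by number was used only in the replicate block, and the main fit was unpaired.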

Additional observations from a re-analysis of the deposited data

How the results depend on the processing

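With all 6 libraries 0 members and 0 genes were called under a pseudocount of 0.1, no filter, median rescaling, quantile normalisation, voom, the replicate block or the length and GC trend removed. The replicate block, with the pairing of equal numbers, changed no call: members stayed between limma adjusted p = 0.313 (Ier3) and 0.935 (Btg2), with 0 genes called. Leaving out single libraries gave 0 to 2412 genes called, 0 to 3 members called and a median over members of −0.32 to 0.0078; calls arose only without negative control 3. Array weights, whose estimation did not fully converge, called 5276 genes and 3 members. Removing the trend together with negative control 3 called 278 genes and 2 members. Leaving out both libraries numbered 3, chosen after seeing the data, called 4377 genes and 4 members (Ier3, Zfp36, Ier5 and Dusp1) with a median of −0.37. The cause was not tested.

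Signs changed for members near 0. Ier2 (0.023) was −0.016 with median rescaling, −0.022 with quantile normalisation, −0.025 with array weights, −0.055 without both libraries numbered 3, and −0.22 to 0.20 with single libraries left out. Klf6 (0.032) was −0.0075 with median rescaling, −0.041 with array weights, −0.15 with the trend removed, −0.33 with the trend and negative control 3 removed, −0.028 without both numbered 3, and −0.040 to 0.077 with single libraries left out. Btg2 (−0.021) was 0.032 with the trend removed, 0.035 with negative control 3 removed as well, 0.022 without both numbered 3, and −0.097 to 0.066 with single libraries left out. Dusp1 (−0.097) was 0.076 and 0.15 with the trend removed, the latter without negative control 3. Klf2 (−0.19) was 0.10 with the trend removed and −0.56 to 0.077 with single libraries left out, and Ier5 (−0.087) −0.33 to 0.046. Among related genes, with the trend and negative control 3 removed Maff was 0.11 and Klf7 −0.048, Dusp4 was −0.026 without both numbered 3, and Mycn was 0.020 with quantile normalisation. Ier3, Zfp36 and Myc kept their sign in every setting tried, and Egr1 in the single setting that tested it.

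With all 6 libraries the 95% intervals of Klf2, Ier2 and Zfp36 were over 1 log2 unit wide, and each was narrower without negative control 3. Egr1 rested on 35 to 81 fragments.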
